A study of Homo sapiens with 4 samples.

Results

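A set of 10 factors and markers of epithelial-mesenchymal transition (EMT) was followed in T24 cells, a human bladder carcinoma line, after siRNA against NSUN2. It holds 4 markers (VIM, FN1, CDH2 and CDH1) and 6 transcription factors (ZEB1, ZEB2, SNAI1, SNAI2, TWIST1 and TWIST2), chosen by gene symbol, and each matched 1 of the 62893 Ensembl genes in the deposited count table. Poly(A) RNA was sequenced from 2 libraries of T24 cells given siRNA against NSUN2 (siNSUN2) and 2 libraries of T24 cells given a control siRNA (siControl), with no other treatment named. NSUN2 encodes an RNA methyltransferase that places 5-methylcytosine. The sources used here give neither the siRNA sequences nor the harvest time, and the work used a single cell line. The labels do not state that replicates came from separate cultures, so each p-value reflects the spread of these libraries alone, possibly a technical one. The comparison asks whether knockdown of NSUN2 changes the abundance of these transcripts.

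EMT is the programme by which epithelial cells lose their junctions and gain a motile, matrix-producing state. SNAI, ZEB and TWIST proteins drive it by repressing junction genes through DNA elements called E-boxes, the best known target being CDH1, which encodes E-cadherin. Cells that have undergone it carry N-cadherin (CDH2), the intermediate filament protein vimentin (VIM) and the matrix protein fibronectin (FN1), and in bladder carcinoma these markers go with invasive growth.

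Library totals were 92640839 and 33633249 counts in siNSUN2 cells and 42298529 and 215936965 counts in siControl cells. Levels are given as counts scaled to library size (CPM). The knockdown was seen in the target itself, as NSUN2 (ENSG00000037474) averaged 29.9 ± 0.366 CPM in siNSUN2 cells and 283 ± 2.53 CPM in siControl cells (SD, n = 2 each). The label of the line was checked against 16 urothelial and epithelial markers, which were mixed. The simple-epithelial keratin genes KRT7, KRT8 and KRT18 stood between 108 and 633 CPM over the 4 libraries. Most others were near 0, since KRT19, KRT5, KRT20 and TP63 were at most 0.0876 CPM in each library and UPK3A, which encodes a uroplakin of the differentiated urothelium, had 0 counts. PPARG and FOXA1 were expressed, at 13.7 to 23.5 CPM and 5.78 to 6.77 CPM over the 4 libraries. Of the 9 tested, 3 were called higher in siNSUN2 cells (KRT7, KRT17 and PPARG), 1 lower (UPK1B) and 5 neither way. The KRT17 call rested on 18 and 8 counts in siNSUN2 libraries, against 0 counts in each siControl library. The log2 fold changes of KRT7, KRT8 and KRT18 were 0.29, −0.09 and −0.14. Once the dependence on GC content and transcript length was removed, they were −0.16, −0.15 and −0.35, and all were called lower.

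T24 cells of both groups carried transcripts of the mesenchymal markers and hardly any of CDH1, and the mesenchymal markers were higher after NSUN2 siRNA. VIM, FN1, CDH2, ZEB2 and SNAI2 rose, by 1.51-fold to 2.27-fold, whereas ZEB1 and SNAI1 did not pass the test. CDH1 was at the edge of detection, and TWIST1 and TWIST2 had 0 counts in every library. Of the 10 members, 7 passed the filter on low counts, 5 of these were called higher and 0 lower at an adjusted p under 0.05 (quasi-likelihood F-test of edgeR, Benjamini-Hochberg adjustment over 16889 genes). Over all genes tested, 27.1% were called higher and 25.5% lower (52.6% in either direction), so a call by itself was common in this comparison. At an unadjusted p under 0.05, edgeR and limma-voom each put 6 of the 7 higher and 0 lower, and DESeq2 put 5 higher and 0 lower. The share of all genes at that unadjusted threshold was not counted. For edgeR it cannot be below the 27.1% higher and 25.5% lower of the adjusted one. In 6 of the 7, both siNSUN2 libraries lay above both siControl libraries, as they did for 38.6% of all genes tested, and in 0 of the 7 both lay below, as they did for 36.0%.

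**Figure D1:**
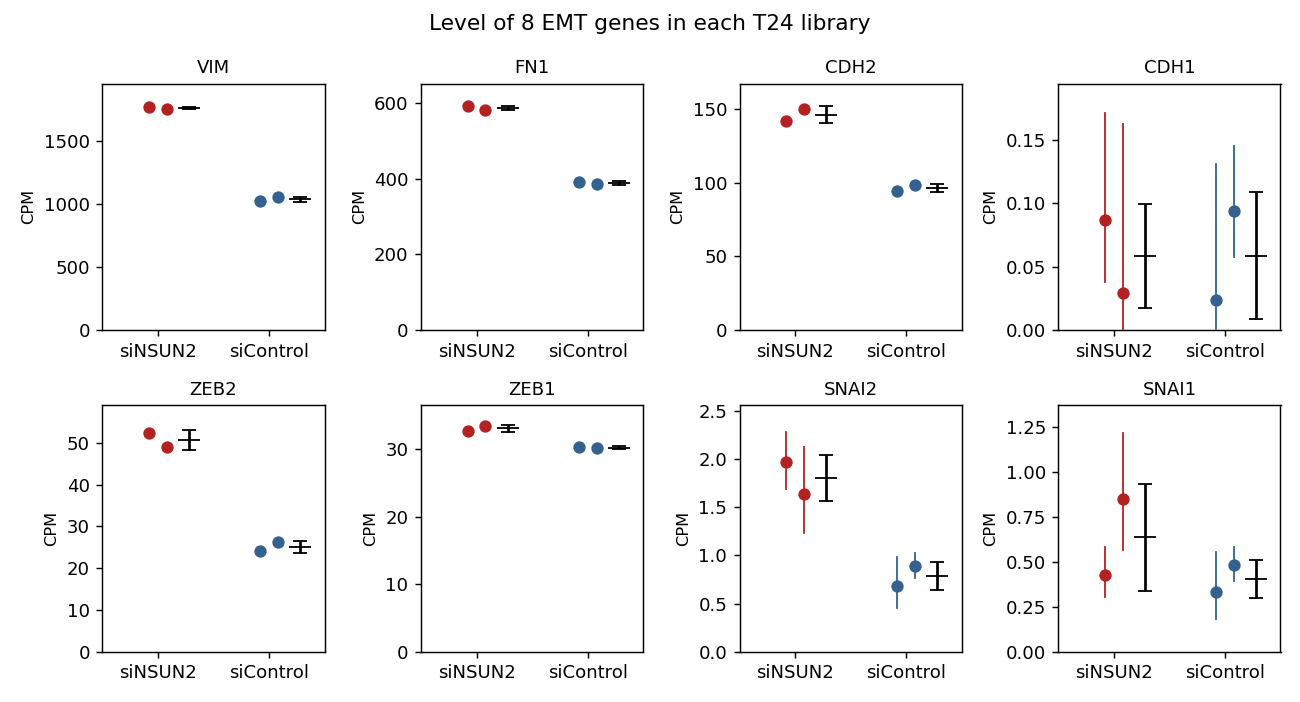
CPM of 8 members in each library (points), with siNSUN2 in red and siControl in blue, and the mean ± SD of the 2 libraries beside them (black); thin lines for CDH1, SNAI2 and SNAI1 are exact 95% Poisson intervals of the counts. VIM, FN1, CDH2, ZEB2 and SNAI2 stand clearly higher in siNSUN2 cells, ZEB1 differs little, and the points of CDH1 and SNAI1 overlap between groups.

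Levels of different genes were compared per kilobase of the longest annotated coding transcript. VIM was by far the most abundant member, at 825 ± 4.21 CPM per kb in siNSUN2 cells and 485 ± 10.2 CPM per kb in siControl cells, which placed it at rank 51 and rank 96 among the genes tested. FN1 followed at 66.0 ± 0.664 CPM per kb in siNSUN2 cells and 43.7 ± 0.564 in siControl cells, and CDH2 at 33.8 ± 1.34 and 22.3 ± 0.676 CPM per kb. Next came the ZEB genes near 5 CPM per kb or below, then SNAI2 and SNAI1 below 1 CPM per kb, and last CDH1 at 0.0119 ± 0.00838 CPM per kb in siNSUN2 cells and 0.0120 ± 0.0102 in siControl cells. VIM, FN1 and CDH2 thus stood above all 6 factors, and CDH1 stood below the 4 factors with counts. Neighbours in this order were separated in all libraries of a group, with 2 exceptions: ZEB1 and ZEB2 overlapped in siNSUN2 cells, and SNAI2 and SNAI1 overlapped in siControl cells.

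**Figure D2:**
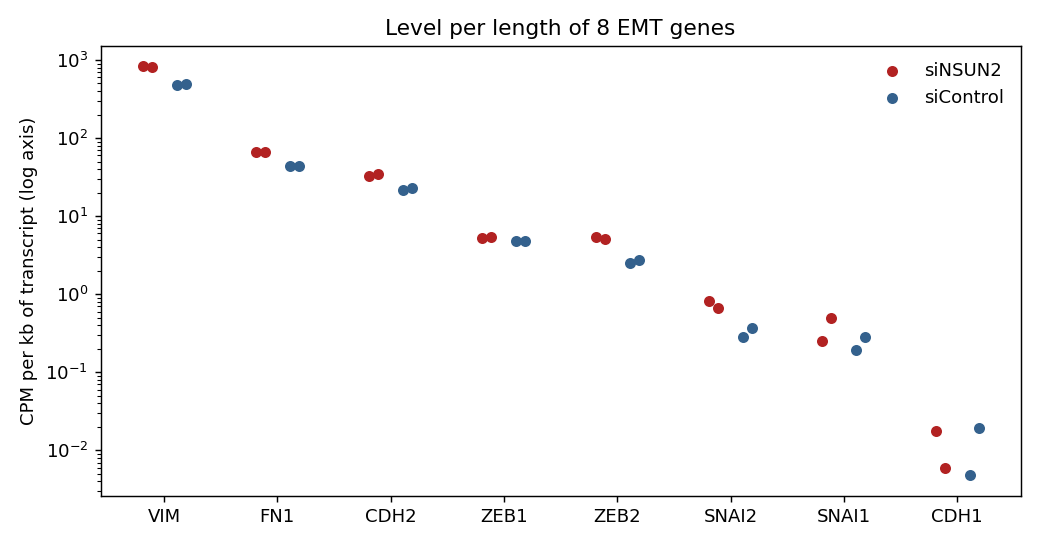
CPM per kb of transcript on a log axis for 8 members, with 1 point per library, siNSUN2 in red and siControl in blue. The order runs from VIM, near 825 CPM per kb in siNSUN2 cells, to CDH1, near 0.0119; ZEB2 lies level with ZEB1 in siNSUN2 cells and below it in siControl cells.

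Among the markers, VIM (ENSG00000026025, chromosome 10), the main intermediate filament gene of mesenchymal cells, had 1768 and 1755 CPM in siNSUN2 libraries 1 and 2, against 1020 and 1051 CPM in siControl libraries 1 and 2. The groups were well apart and the replicates close. Its log2 fold change was 0.77 (SE 0.0402, adjusted p = 5.38e-07), and 12.4% of all genes tested had a log2 fold change at least as high. The antisense transcript VIM-AS1, which overlaps VIM in the reference annotation, went the opposite way, at 4.93 ± 0.193 CPM in siNSUN2 cells and 8.48 ± 0.592 CPM in siControl cells (SD, n = 2 each; log2 fold change −0.78, adjusted p = 3.24e-04). With GC and length trends taken off, that is, after removing the dependence of each library on GC content and transcript length, it was −0.48. AL133415.1, named because it also overlaps VIM on the opposite strand, had 123 and 42 counts in siNSUN2 libraries. It had 234 and 1193 counts in siControl libraries, and these values are not scaled for depth. The sources used here give no strand setting for the counting, so reads of VIM and these antisense genes may not be fully separated. However, the counts of VIM-AS1 ran from 164 to 1714 per library and those of VIM from 43339 to 223478.

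FN1 (ENSG00000115414, chromosome 2), which encodes fibronectin, a matrix glycoprotein bound by integrins, had 591 and 583 CPM in siNSUN2 libraries, against 392 and 385 CPM in siControl libraries. The 2 libraries of each group differed little, and the groups did not overlap. The log2 fold change was 0.60 (SE 0.0378, adjusted p = 1.59e-06). ATIC, a purine synthesis gene that neighbours FN1, fell by 0.49 on the log2 scale. It averaged 157 ± 1.81 CPM in siNSUN2 cells and 219 ± 9.02 CPM in siControl cells (SD, n = 2 each). CDH2 (ENSG00000170558, chromosome 18), which encodes N-cadherin, the cadherin that replaces E-cadherin at cell contacts during EMT, had 142 and 151 CPM in siNSUN2 libraries, against 94.5 and 98.7 CPM in siControl libraries. It also rose without overlap, by about the same amount as FN1 (log2 fold change 0.60, SE 0.0462, adjusted p = 5.20e-06).

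CDH1 (ENSG00000039068, chromosome 16), the epithelial counterpart of CDH2, had 8 and 1 counts in siNSUN2 libraries 1 and 2, against 1 and 20 counts in siControl libraries 1 and 2. These are 0.0871 and 0.0292 CPM in siNSUN2 cells and 0.0235 and 0.0940 CPM in siControl cells, and the groups overlapped. The exact 95% Poisson intervals ran from 0.00074 to 0.172 CPM over the siNSUN2 libraries and from 0.000596 to 0.145 CPM over the siControl libraries, and cover counting error only. CDH1 was left out by the filter on low counts, and no difference was detectable at this depth. In the fit without a filter its log2 fold change was −0.06 (adjusted p = 0.979). CDH2 exceeded CDH1 in CPM per kb by 1844-fold and 5817-fold in siNSUN2 libraries and by 4534-fold and 1184-fold in siControl libraries, a ratio that rests on 1 count of CDH1 in the libraries where it is highest.

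Of the factors, ZEB2 (ENSG00000169554, chromosome 2), a zinc finger and homeodomain repressor of E-cadherin, changed the most in proportion to its error. It had 52.4 and 49.0 CPM in siNSUN2 libraries, against 24.1 and 26.1 CPM in siControl libraries, with no overlap (log2 fold change 1.01, SE 0.0589, adjusted p = 9.77e-07). Its relative ZEB1 (ENSG00000148516, chromosome 10), which binds the same E-boxes, had 32.7 and 33.5 CPM in siNSUN2 libraries, against 30.4 and 30.15 CPM in siControl libraries. The ZEB1 libraries did not overlap between groups either, but the difference was small, with a log2 fold change of 0.13 (SE 0.0510) that missed the threshold (adjusted p = 0.0614). ZEB1 was called with GC and length trends taken off (0.37, adjusted p = 9.78e-04) and narrowly with library totals alone (0.14, adjusted p = 0.0491).

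The proportion of the ZEB genes did not overlap between the groups. ZEB2 over ZEB1, in CPM per kb, was 1.05 and 0.958 in siNSUN2 libraries, against 0.519 and 0.567 in siControl libraries. Taking each siNSUN2 library against each siControl library, the log2 ratio of ZEB2 lay between 0.91 and 1.12 and that of ZEB1 between 0.11 and 0.15. These ranges do not overlap, although the difference between the genes was not tested.

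ZEB1 and ZEB2 are the best known targets of the miR-200 family, small RNAs of epithelial cells that bind the 3′ UTR by their seed (bases 2 to 8 from the 5′ end) and lower ZEB protein, and which ZEB proteins repress in turn. This search was chosen after the values of the pair were seen. The mature sequences are shown because they give the sites looked for in the pair, and capitals mark the seed (RefSeq, GRCh38.p14).
miR-200b-3p: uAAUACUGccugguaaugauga
miR-200c-3p: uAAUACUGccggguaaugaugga
miR-429: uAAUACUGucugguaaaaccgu
miR-200a-3p: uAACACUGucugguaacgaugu
miR-141-3p: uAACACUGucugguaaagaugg
miR-205-5p: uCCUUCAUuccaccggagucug
The first 3 share the seed AAUACUG, the next 2 share AACACUG, and miR-205 has CCUUCAU. In the longest annotated 3′ UTR of each gene (GENCODE release 29), ZEB1 held 6 matches to the first seed (CAGTATT), 3 to the second (CAGTGTT) and 1 to that of miR-205 (ATGAAGG) over 2549 bases, and ZEB2 held 5, 4 and 0 over 5370 bases. Over 12443 tested genes with a 3′ UTR of at least 50 bases, at least 1 match was found in 19.4% for CAGTATT, 21.5% for CAGTGTT and 13.6% for ATGAAGG. FN1 held 2 matches to CAGTATT and SNAI2 held 1. The match nearest the stop codon for each miR-200 seed is shown for the pair, with the match in capitals.
ZEB2, CAGTATT: taccatacatCAGTATTtttattatta
ZEB2, CAGTGTT: aaattttgtaCAGTGTTaaggcctaaa
ZEB1, CAGTATT: tttatcttatCAGTATTatcactctta
ZEB1, CAGTGTT: tcatcagaatCAGTGTTtgtgattgtg
Both genes thus carry sites of both miR-200 kinds, while of the pair only ZEB1 holds a miR-205 match. A match is not evidence that a site is used. The word ACCCTA, chosen from earlier results of these data and read on the transcript strand, occurred once in the 3′ UTR of ZEB2 and in 21.4% of the 12443 genes. No match was found in the 3′ UTRs of the other 9 members.
ZEB2, ACCCTA: ttacaagatgACCCTAatattcagaa
Any part of that word in the higher level of ZEB2 in siNSUN2 cells was not tested.

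Mature miRNAs are not captured in poly(A) libraries, and their genes were read only through longer transcripts. MIR200C, MIR141 and the host genes MIR200CHG and MIR205HG had 0 counts in every library. MIR429 had 25 and 14 counts in siNSUN2 libraries, against 7 and 20 counts in siControl libraries (log2 fold change 1.47, SE 0.635, adjusted p = 0.0816), and MIR200B and MIR200A each had 19 counts or fewer per library and were not tested. Transcripts of the miR-200 genes were therefore at or near the limit of detection in both groups, as CDH1 was.

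The promoters of the ZEB pair were set beside each other because ZEB2 was called and ZEB1 was not. From RefSeq's table (GRCh38.p14, 250 bases before to 50 after the start), 13 promoters of 6 of the members were read. Promoters of the remaining members were not examined, which does not show that RefSeq lacks them. The E-box CACCTG, or CAGGTG on the other strand, which SNAI and ZEB zinc fingers bind, was found in 2 of the 7 promoters of ZEB1 and in 0 of the 6 promoters of VIM, FN1, CDH2, ZEB2 and TWIST2, against 20.6% of all 35116 promoters. The general E-box CANNTG, which includes these words and reads the same on both strands, was in 68.7% of all promoters. Capitals mark CANNTG in the ZEB2 promoter and in the ZEB1 promoter with the most CACCTG or CAGGTG. Another ZEB1 promoter also held 3 CANNTG, of which 0 were CACCTG or CAGGTG.
ZEB2, chr2:144520070-144520369, minus strand: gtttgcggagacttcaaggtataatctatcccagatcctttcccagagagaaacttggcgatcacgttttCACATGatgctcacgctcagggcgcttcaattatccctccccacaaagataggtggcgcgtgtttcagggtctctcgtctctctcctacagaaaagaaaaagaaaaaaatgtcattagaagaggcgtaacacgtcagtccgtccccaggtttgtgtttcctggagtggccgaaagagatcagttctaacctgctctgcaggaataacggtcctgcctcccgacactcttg
ZEB1, chr10:31318966-31319265, plus strand: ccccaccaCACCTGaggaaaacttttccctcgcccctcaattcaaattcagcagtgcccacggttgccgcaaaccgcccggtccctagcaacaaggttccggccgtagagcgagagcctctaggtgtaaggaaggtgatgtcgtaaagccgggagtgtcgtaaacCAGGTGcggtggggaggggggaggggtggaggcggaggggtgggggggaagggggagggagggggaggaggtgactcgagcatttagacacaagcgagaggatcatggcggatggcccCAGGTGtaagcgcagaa
In the ZEB1 promoter all 3 marked E-boxes are CACCTG or CAGGTG, and the ZEB2 promoter holds 1 of another form. A match describes these letters and is not a binding site, and no match says nothing about the factors.

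The SNAI factors were scarce. SNAI2 (ENSG00000019549, chromosome 8), which encodes Slug, had 181 and 56 counts in siNSUN2 libraries, against 29 and 190 counts in siControl libraries. Scaled for depth these are 1.97 and 1.64 CPM in siNSUN2 cells and 0.682 and 0.893 CPM in siControl cells, with no overlap between groups. SNAI2 showed the highest fold change of the 7 members tested (log2 fold change 1.18, SE 0.269, adjusted p = 0.00479). Its call was lost without siNSUN2 replicate 1 (1.03, adjusted p = 0.0558).

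SNAI1 (ENSG00000124216, chromosome 20), which encodes Snail, had 39 and 29 counts in siNSUN2 libraries, against 14 and 102 counts in siControl libraries. These are 0.425 and 0.847 CPM in siNSUN2 cells and 0.329 and 0.480 CPM in siControl cells, so that the groups overlapped. Its log2 fold change was 0.57 (SE 0.461, adjusted p = 0.350), and with each library left out in turn it ran from 0.04 without siNSUN2 replicate 2 to 1.02 without siNSUN2 replicate 1. It was 1.59 with libraries thinned to the shallowest. The direction of SNAI1 was therefore not settled at this depth.

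TWIST1 (ENSG00000122691, chromosome 7) and TWIST2 (ENSG00000233608, chromosome 2), which encode basic helix-loop-helix factors that act with the SNAI and ZEB proteins in many mesenchymal cells, had 0 counts in all 4 libraries. A count of 0 allows up to 3 counts, or 0.0327 and 0.0876 CPM in siNSUN2 libraries and 0.0706 and 0.0141 CPM in siControl libraries. No transcript of either gene was detectable, and no fold change is given.

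**Figure D3:**
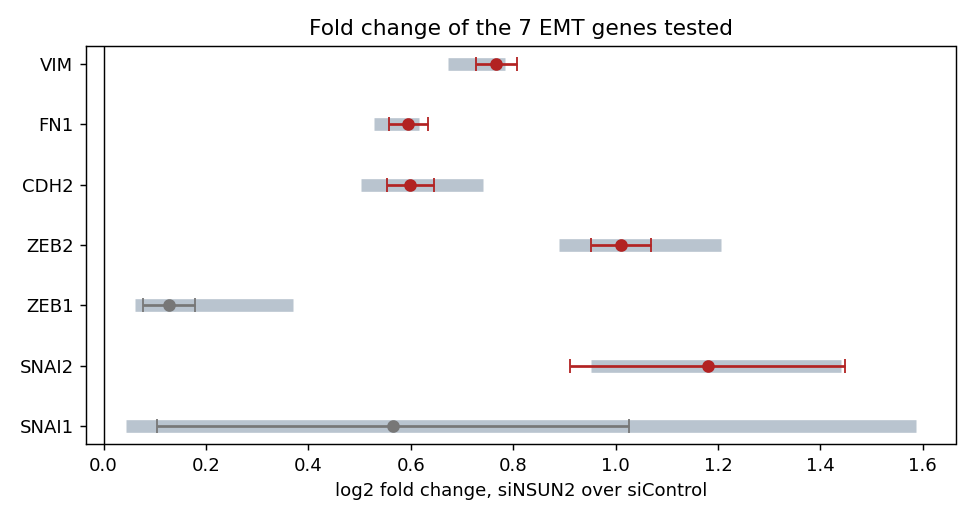
Log2 fold change of siNSUN2 over siControl for the 7 members tested, with its standard error (points and bars; red, called higher; grey, not called) and the range over all alternative settings (wide grey band). VIM, FN1, CDH2, ZEB2 and SNAI2 stay well above 0 throughout, whereas the band of SNAI1 reaches down to 0.04.

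Since several members are also expressed by stromal, vessel or blood cells, markers of other cell types were read in the same libraries. The 8 endothelial markers summed to 2.64 and 11.6 CPM in siNSUN2 libraries 1 and 2, against 0.635 and 0.442 CPM in siControl libraries, and the largest part was VWF, at 1.80 and 8.73 CPM in siNSUN2 cells and 0.165 and 0.113 CPM in siControl cells, while PECAM1 had 0 counts throughout. The 10 leukocyte markers summed to 1.52 and 3.91 CPM in siNSUN2 libraries, against 1.01 and 0.870 CPM in siControl libraries, with CD3D, of T cells, at 0 in each library. The 10 fibroblast markers summed to 3.25 and 3.65 CPM in siNSUN2 libraries, against 1.15 and 2.68 CPM in siControl libraries. The 5 erythroid markers summed to 0 and 2.95 CPM in siNSUN2 libraries, against 0 and 0.813 CPM in siControl libraries, and the 6 neural crest and muscle markers to at most 0.339 CPM in each library. These sums were small beside VIM, but the endothelial and fibroblast sums exceeded SNAI2 in both siNSUN2 libraries, and their part in the results was not tested. The library with the highest endothelial, leukocyte and erythroid sums was siNSUN2 replicate 2. Without that library the log2 fold changes were 0.78 for VIM, 0.62 for FN1, 0.57 for CDH2, 1.07 for ZEB2 and 1.31 for SNAI2, and all 5 were called. That fit has 1 siNSUN2 library, assumed to vary as the siControl libraries do, and this library also had more VWF than either siControl library.

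The genes that work with these members were followed in lists, described by their counts beside the 27.1% called higher and 25.5% called lower over all genes, whose median log2 fold change was 0.03. In bulk RNA, fewer cells of a type and less RNA per cell cannot be told apart.

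Mesenchymal markers and matrix genes were mostly higher, with 15 of 27 called higher, 5 lower and 7 without a call (median log2 fold change 0.44). COL6A1, a chain of collagen VI, averaged 20.2 ± 0.683 CPM in siNSUN2 cells and 6.30 ± 0.218 CPM in siControl cells (SD, n = 2 each; log2 fold change 1.68, adjusted p = 2.46e-07). P4HA2, a collagen prolyl hydroxylase, rose by 1.15, at 55.5 ± 4.16 CPM in siNSUN2 cells and 25.1 ± 0.791 CPM in siControl cells. The enzymes of collagen maturation did not move as 1 group, since PLOD2, a collagen lysyl hydroxylase, fell by 1.01 on the log2 scale, to 122 ± 0.366 CPM in siNSUN2 cells, against 246 ± 9.68 CPM in siControl cells. COL4A1, a basement membrane collagen, fell by 0.45.

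Receptors and matrix partners of fibronectin also leaned upward, with 6 of 9 higher, 2 lower and 1 that did not pass (median 0.46). ITGA5, the alpha chain of the classical fibronectin receptor, rose by 0.74 on the log2 scale (0.45 with GC and length trends taken off), at 92.9 ± 0.661 CPM in siNSUN2 cells and 55.5 ± 0.824 CPM in siControl cells. FBLN1, which encodes fibulin, a matrix protein that binds fibronectin, rose by 0.64. The other integrin subunits were divided. ITGAV and ITGB5 fell by 0.40 (by 0.16 with those trends taken off) and by 0.28, and ITGB5 was not called against a fold of 1.2. ITGB3 and ITGB6, named after their values were seen, were called higher at 1.05 and 1.12.

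Of 8 genes of intermediate filament partners and nuclear lamins, 5 rose, 2 fell and 1 was not called. Their median was 0.37, or −0.05 with the trends taken off. LMNA, which encodes lamins A and C, averaged 602 ± 14.6 CPM in siNSUN2 cells and 373 ± 2.94 CPM in siControl cells (log2 fold change 0.69, and 0.29 with the trends taken off). PLEC, the plectin linker between vimentin and other cytoskeletal structures, was called higher at 0.61 on the log2 scale, but stood at −0.11 (adjusted p = 0.108) with the trends taken off. The cytoskeletal linkers MACF1 and DST fell by 0.29 and 0.20, neither called against a fold of 1.2, and DST was not called with the trends taken off (−0.13).

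Ligands and receptors that induce EMT were divided. Of 17 tested, 9 rose, 4 fell and 4 did not pass. Their median was 0.34, or 0.13 with the trends taken off. TGFBR2, the type II receptor of transforming growth factor beta, averaged 181 ± 1.05 CPM in siNSUN2 cells and 70.4 ± 3.84 CPM in siControl cells (log2 fold change 1.36, adjusted p = 8.28e-08). Its ligand gene TGFB1 averaged 227 ± 1.64 CPM in siNSUN2 cells and 108 ± 4.34 CPM in siControl cells (1.07, and 0.60 with the trends taken off). The receptor tyrosine kinase genes AXL and EGFR went the other way: AXL, often high in mesenchymal carcinoma cells, stood at 117 ± 5.25 CPM in siNSUN2 cells and 337 ± 5.89 CPM in siControl cells (−1.52, adjusted p = 3.81e-08), and EGFR fell by 0.65. All 4 genes called lower (AXL, EGFR, TGFB2 and FGF2, the last 2 named after their values were seen) hold the word ACCCTA in the 3′ UTR. FGF2 stood at 0.03 and was not called with the trends taken off. The word was held by 7 of the 17 tested, against 21.4% of 12443 genes. It was chosen from earlier results of these data, so finding it in genes called lower here is not independent of them. Its share among all genes called lower was not counted, and 3′ UTR length was not matched. TGFB1, which rose, also holds it, as do genes without a call. With such genes left out, 7 of the list were called higher and 0 lower. The loss of those 4 calls followed from leaving the genes out.

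Of 13 other EMT transcription factors tested, 5 rose, 2 fell and 6 did not pass. Their median was 0.21, or 0.04 with the trends taken off. HMGA2, a chromatin protein that promotes SNAI1 transcription, averaged 512 ± 13.0 CPM in siNSUN2 cells and 231 ± 4.74 CPM in siControl cells (log2 fold change 1.15, adjusted p = 8.41e-08). TCF3, an E-protein that binds E-boxes, rose by 0.54 (0.14 with the trends taken off). Another E-protein gene, TCF12, fell by 0.26 and was not called with the trends taken off (−0.05) or against a fold of 1.2. FOXC1, a forkhead factor gene, fell by 0.45, a call lost without siNSUN2 replicate 1 (adjusted p = 0.0646), against a fold of 1.2 and at an adjusted p under 0.01. With the replicate number as a block, 11 of these genes were called in all in place of 7.

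Partners and turnover factors of SNAI and ZEB proteins were split evenly, with 7 of 22 higher, 7 lower and 8 that did not pass. Their median was 0.07, or 0.04 with the trends taken off. GSK3B, a kinase that marks Snail protein for destruction, rose by 0.28 (0.45 with the trends taken off), and FBXW7, a ubiquitin ligase subunit, by 0.44. PRKD1, a kinase that phosphorylates Snail, fell by 0.51, and KDM1A, a histone demethylase recruited by Snail, by 0.31. GSK3B and KDM1A were not called against a fold of 1.2.

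**Figure D4:**
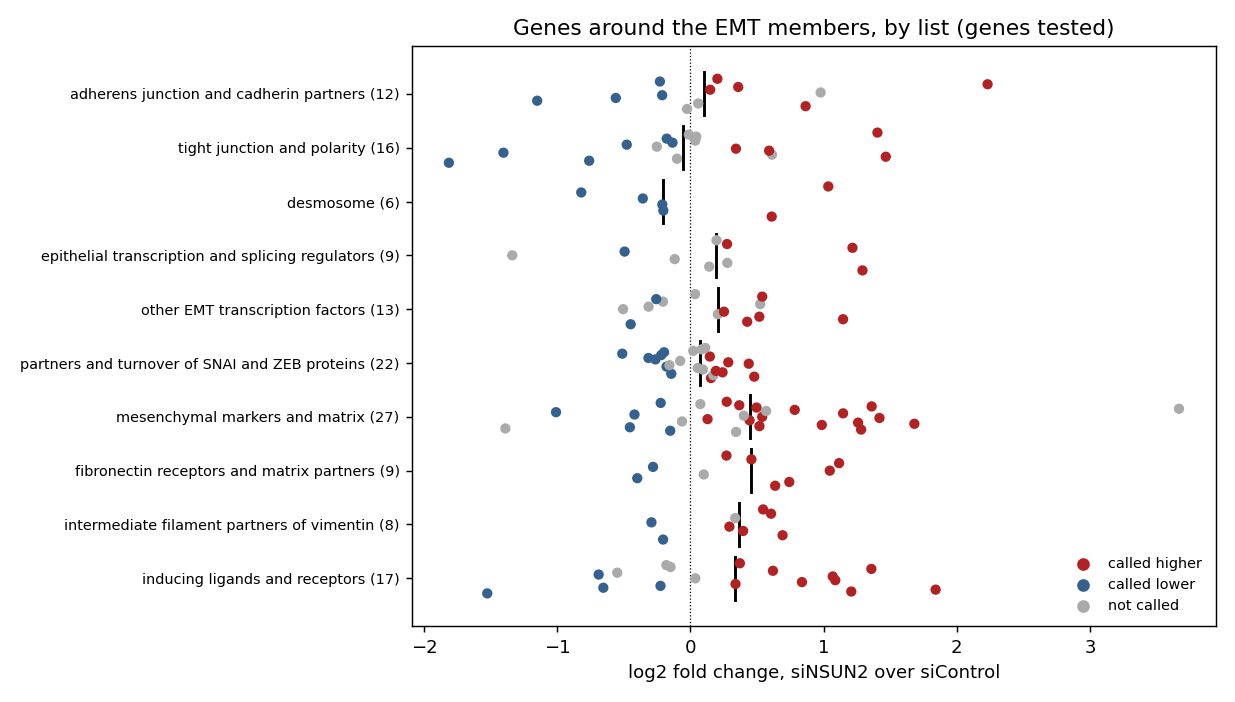
Log2 fold change of siNSUN2 over siControl for each tested gene of the 10 lists with 5 or more genes tested (number tested in brackets); red points were called higher, blue points lower and grey points were not called, and the black bar is the list's median. The medians of the mesenchymal, fibronectin, filament and inducer lists lie between 0.34 and 0.46, and those of the junction lists between −0.21 and 0.10. With GC and length trends taken off, which is not drawn, the filament median was −0.05 and the inducer median 0.13, within or near the junction lists at −0.08 to 0.10.

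The epithelial side was mixed. Of 12 genes of adherens junctions and cadherin partners, 5 rose, 4 fell and 3 did not pass (median 0.10). CTNNB1, which encodes beta-catenin, the link between cadherins and the cytoskeleton and an effector of WNT signalling, stood at 193 ± 4.26 CPM in siNSUN2 cells and 428 ± 7.01 CPM in siControl cells (log2 fold change −1.15, adjusted p = 7.68e-08). CTNND1, a catenin that holds cadherins at the membrane, fell by 0.56. Thus CDH2 was higher while transcripts of CTNNB1 and CTNND1 were lower. The related catenin gene ARVCF rose by 0.87 (0.28 with the trends taken off) and the adhesion gene NECTIN3 by 0.36 (0.61 with the trends taken off). Other cytoplasmic partners, named after their values were seen, were divided. JUP and PKP4 were called lower, at −0.21 and −0.23. VCL was called higher at 0.20, and CTNNA1 and AFDN were not called, at 0.06 and −0.03.

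Tight junction and polarity genes gave 4 higher, 6 lower and 6 without a call of 16 tested. Their median was −0.06, or 0.03 with the trends taken off. F11R, which encodes a junctional adhesion molecule, averaged 13.0 ± 0.649 CPM in siNSUN2 cells and 34.4 ± 0.0110 CPM in siControl cells (log2 fold change −1.40, adjusted p = 2.31e-07). CGN, which encodes cingulin of the tight junction plaque, averaged 4.89 ± 0.311 CPM in siNSUN2 cells and 17.1 ± 0.822 CPM in siControl cells (−1.81, adjusted p = 4.18e-07). MARVELD2, which encodes tricellulin, rose by 0.34 and was not called against a fold of 1.2. LLGL2, a polarity gene, was called higher at 0.59 on the log2 scale, but stood at 0.08 (adjusted p = 0.481) with the trends taken off.

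Of 6 desmosome genes, 2 rose and 4 fell. Their median was −0.21, or −0.08 with the trends taken off. The plakophilin gene PKP2 fell by 0.82, and PERP, which encodes a desmosomal membrane protein, by 0.36 (by 0.15 with the trends taken off). The desmosomal cadherin gene DSC2 rose by 0.61. PKP3 rose by 1.04, a call lost with the trends taken off (0.45, adjusted p = 0.0864).

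Regulators of epithelial transcription and splicing gave 3 higher, 1 lower and 5 that did not pass of 9 tested. Their median was 0.20, or 0.32 with the trends taken off. KLF4, a factor that activates CDH1 in epithelial cells, averaged 33.1 ± 2.13 CPM in siNSUN2 cells and 14.2 ± 0.767 CPM in siControl cells (log2 fold change 1.22, adjusted p = 9.38e-07). KLF5 had a log2 fold change of 0.28 (adjusted p = 0.0128), which was 0.15 without siControl replicate 1 (adjusted p = 0.219) and was also not called without siNSUN2 replicate 2 (0.22, adjusted p = 0.0859), with DESeq2, at an adjusted p under 0.01, against a fold of 1.2 or without ACCCTA-bearing genes. GRHL1 fell by 0.49, a call lost with the trends taken off (−0.35, adjusted p = 0.0571), against a fold of 1.2 and with libraries thinned to the shallowest. The splicing regulators ESRP1 and ESRP2, which mark epithelial cells, were scarce, between 0.202 and 0.599 CPM over the 4 libraries, and did not pass the test.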

How the data were processed

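Per the labels' protocols, poly(A) RNA of T24 cells was made into stranded libraries and sequenced as read pairs. The authors deposited raw counts of Ensembl genes for the 4 libraries in a single table. The tools and build named are HISAT2, HTSeq and hg19, per the submitters' processing notes. Versions, annotation and strand setting were not given in the sources used here. Symbols were found for 51535 of 62893 IDs. Groups and replicate numbers came from sample titles. The siNSUN2 libraries differed from each other, and so did the siControl libraries, beyond sampling noise (chi-square over its degrees of freedom 13.5 and 20.5). The members and lists were chosen with earlier results of these data known.

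The test was edgeR 4.0.16 in R 4.3.3 (quasi-likelihood F-test, robust, TMM, filterByExpr by group, two-sided, Benjamini-Hochberg, threshold 0.05). It kept 16889 genes with 99.96% of the counts. It was also run on simulated counts in which few genes changed, unlike these data, so that run does not check the scaling here. Standard errors were derived from F. CPM used library sizes scaled by TMM factors. With 1 CPM standing for 34.2 to 213 counts, counting error was small for all members but CDH1, SNAI1 and SNAI2. Trends on GC content and transcript length were taken off per library by loess (span 0.4), for the 96.4% of genes with a GENCODE release 29 transcript. That annotation is on GRCh38, so no gene coordinates are given. Genes named were the members, NSUN2 and, per list, up to 2 called higher and up to 2 called lower with the smallest p and an average log2 CPM of at least 1. Marker genes of other cell types, the urothelial markers, the miRNA genes, ESRP1 and ESRP2 were named after their values were seen. Alternatives were DESeq2 1.42.0, limma-voom (limma 3.58.1), non-robust edgeR, other scaling and filters, a replicate block, leaving out each library in turn, thinning to the shallowest library, ACCCTA-bearing genes left out, and stricter thresholds.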

Additional observations from a re-analysis of the deposited data

How the results depend on the processing

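VIM, FN1 and CDH2 were called higher under all 18 alternatives and ZEB2 under the 17 that tested it, with log2 fold changes of 0.67 to 0.78, 0.53 to 0.62, 0.50 to 0.74 and 0.89 to 1.21. SNAI2 (0.95 to 1.44) was called under 16 of 17 and ZEB1 (0.06 to 0.37) under 2 of 18; SNAI1 (0.04 to 1.59) was called under none of 17. Over the members, NSUN2 and the genes named by rule, 838 of 865 values kept their direction and side of the threshold. PLEC turned to −0.11 with GC and length trends taken off. Against a fold of 1.2, 2913 genes were higher and 2529 lower, and genes called fell to 5 for adherens junctions, 6 for tight junctions, 2 for epithelial regulators, 4 for other EMT factors, 3 for partners of SNAI and ZEB and 4 for filament partners. Filament partners also gave 4 with the trends taken off, and epithelial regulators 2 with thinned libraries. Leaving out ACCCTA-bearing genes left 8 calls among partners of SNAI and ZEB (3 higher, 5 lower) and 7 among inducers (7 higher, 0 lower), with fewer genes tested and a median shift of −0.07. The inducers called lower in the reported fit all hold the word, so that setting removed them. Among miRNA hosts, MIR429 was the 1 call with limma-voom and MIR200B the 1 call without a filter. The replicate block gave 11 calls among other EMT factors and changed no call of a member. The labels do not say whether a replicate number marks a shared batch, and deviations of same-numbered libraries correlated at 0.149 over 10390 genes, which does not settle it with 2 pairs. The cause of these changes was not tested. Log2 fold changes of all genes shifted by a median of 0.08 with the trends taken off and by −0.07 without siControl replicate 1, where 44.2% of calls were higher, against 51.5% in the reported fit. Depth limits CDH1, SNAI1, TWIST1 and TWIST2.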

Other observations

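LYZ, which encodes lysozyme of myeloid cells, had 4 and 53 counts in siNSUN2 libraries 1 and 2, against 0 and 7 counts in siControl libraries 1 and 2. HBB, the beta-globin gene, had 0 and 91 counts in siNSUN2 libraries, against 0 and 40 counts in siControl libraries. SPARC, a matrix protein gene of mesenchymal and endothelial cells, had 34 and 81 counts in siNSUN2 libraries, against 3 and 25 counts in siControl libraries, a log2 fold change of 3.67 that did not pass the test (SE 1.19, adjusted p = 0.0778). These 3 genes were chosen after their values were seen, and their part in the results was not tested.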
